A study of Mus musculus with 23 samples.

Results

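Transcripts of 40 proliferation and DNA replication genes were followed in connecting tubule and cortical collecting duct dissected from mouse kidney. The genes were taken by symbol, through the GENCODE mouse annotation, from a table of 54393 genes, and all 40 were found. Of these, 31 act in mitosis, from the cyclins to the spindle, and 9 act in DNA replication or nucleotide supply. All 40 passed the filter on low counts that left 25829 genes for testing.

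The 23 libraries came from mice that all carried Pax8-rtTA, TRE-LC-1 and MRflox/flox, that is a doxycycline-dependent activator expressed in kidney tubule cells, a Cre recombinase under its control, and floxed Nr3c2, the gene of the mineralocorticoid receptor. Doxycycline was given to the knockout mice at 2 mg/ml, in drinking water sweetened with 5% sucrose, over 2 weeks, and a washout of 2 weeks on a rescue diet came next. Controls had the sweetened water alone. The groups, each on its diet for 4 days, were controls on normal potassium (CT-NK, n = 5), controls on high potassium (CT-HK, n = 6), knockouts on normal potassium (KO-NK, n = 6) and knockouts on low potassium (KO-LK, n = 6). Receptor loss and doxycycline exposure cannot be told apart in these groups. The labels do not state whether controls ate the rescue diet, so its part cannot be told apart from receptor loss either. The labels also give neither ages nor strains and do not say that each library came from its own animal. The design contrasts potassium intake and receptor loss; the pair of main interest for these genes is KO-LK against KO-NK, where only the diet differs.

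A dividing cell first licenses its replication origins with the MCM helicase, a ring of Mcm2 to Mcm7, and then copies its DNA with the sliding clamp Pcna, while Rrm2 and Tyms supply deoxynucleotides. Entry into mitosis needs the kinase Cdk1 with its cyclins. Aurora and Polo-like kinases then build the spindle, kinetochores attach chromosomes to it, and the anaphase-promoting complex, with Cdc20 and Ube2c, triggers exit. In adult kidney tubules few cells divide. Many mitotic genes share a promoter layout of CCAAT boxes, bound by NF-Y, and a cell cycle genes homology region (CHR), bound by the DREAM and MuvB complexes; many replication genes carry E2F sites instead.

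Promoters of the called genes, and of Mcm5 as a replication gene that was not called, were read to show whether the members share this layout, since the layout was not used in choosing them. RefSeq windows (GRCm38.p6, 250 bases before to 50 after the annotated start) were matched for 35 of the 40 genes, all but Mcm4, Ccna2, Aurkb, Kif20a and Tpx2. The stretches below are the 150 bases before the RefSeq start, 5′ to 3′ on the gene's strand, with motifs in capitals. The CCAAT box is CCAAT, which appears as ATTGG where it lies on the opposite strand. The CHR is TTTGAA, seen on the opposite strand as TTCAAA, and the word TTCGAA was searched as well. The E2F site is TTGGCGC, and the variants TTCCCGC and also TTGCCGC and also TTCGCGC were searched on both strands as well. Coordinates are chr6:124830026-124830175 for Cdca3 (plus strand), chr2:164769779-164769928 for Ube2c (plus), chr10:69352913-69353062 for Cdk1 (minus), chr4:124936918-124937067 for Cdca8 (minus), chr5:138171884-138172033 for Mcm7 (minus) and chr8:75109359-75109508 for Mcm5 (plus). The GENCODE models of Cdca3, Ube2c, Cdk1, Cdca8 and Mcm7 begin upstream of the RefSeq start used here. Part or all of each of these stretches therefore lies inside the GENCODE gene. This includes the CHR word of Ube2c and the CHR word of Cdk1 nearer to the start.
Cdca3: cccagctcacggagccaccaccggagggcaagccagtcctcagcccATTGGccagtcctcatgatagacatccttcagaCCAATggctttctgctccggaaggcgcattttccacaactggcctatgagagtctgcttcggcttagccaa
Ube2c: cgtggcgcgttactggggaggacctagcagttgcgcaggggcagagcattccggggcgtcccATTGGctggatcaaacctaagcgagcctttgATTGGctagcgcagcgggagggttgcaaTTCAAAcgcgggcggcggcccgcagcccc
Cdk1: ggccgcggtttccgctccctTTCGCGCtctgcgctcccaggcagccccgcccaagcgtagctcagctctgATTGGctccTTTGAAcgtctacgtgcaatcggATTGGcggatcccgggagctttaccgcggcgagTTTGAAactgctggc
Cdca8: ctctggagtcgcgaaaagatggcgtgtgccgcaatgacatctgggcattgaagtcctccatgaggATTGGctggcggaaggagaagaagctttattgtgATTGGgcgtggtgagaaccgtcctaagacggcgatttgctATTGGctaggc
Mcm7: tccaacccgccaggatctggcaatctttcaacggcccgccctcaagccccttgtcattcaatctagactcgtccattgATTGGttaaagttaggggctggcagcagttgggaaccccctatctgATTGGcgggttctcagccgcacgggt
Mcm5: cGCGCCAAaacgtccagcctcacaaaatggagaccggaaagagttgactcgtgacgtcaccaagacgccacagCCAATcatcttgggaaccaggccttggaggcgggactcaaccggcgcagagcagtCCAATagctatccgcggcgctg

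The Cdk1 stretch held 2 CHR words, 2 CCAAT boxes and 1 E2F word, and that of Ube2c 1 CHR word and 2 CCAAT boxes. The CHR words of Cdca3 and Cdca8 lay just after the start, from base 31 and base 14, so the stretches show only their CCAAT boxes, 2 in Cdca3 and 3 in Cdca8. Among mitosis genes with a window, 22 of 27 held a CHR word (81.5%), 21 of 27 a CCAAT box (77.8%) and 19 of 27 both (70.4%). Over 27025 genes with windows of the same length these shares were 21.7%, 41.1% and 8.61%. The replication genes had another composition, shown by Mcm5 with 1 E2F word in its stretch. Of 8 replication genes, 5 held an E2F word (62.5%, against 14.8% of mitosis genes and 10.9% of all genes), 7 held a CCAAT box (87.5%) and 2 a CHR word (25%). The word TTGGCGC overlaps a reverse CCAAT box wherever an A precedes it, so CCAAT and E2F counts can share letters. A match is a run of letters in this window and was not measured as binding.

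Libraries held 16158408 to 34154475 estimated counts. Nr3c2, the targeted gene, lay between 66.6 and 152 CPM (counts relative to the TMM-scaled library total) over the 11 control libraries and between 34.2 and 74.1 over the 12 knockout libraries, which overlapped at the edge. It was lower in KO-NK than in CT-NK (log2 fold change -0.88, adjusted p = 0.0373 by edgeR). In 5 libraries, named here by group and replicate (CT-NK 4, CT-HK 4, KO-NK 1, KO-NK 3 and KO-LK 3) olfactory and vomeronasal receptor genes took more than 2500 CPM, and CT-NK 5 and CT-HK 6 held 18840 and 32410 CPM of 18 proximal tubule markers. All 16 markers of principal and connecting tubule cells were detected in the groups, with sums of 35770 to 51630 CPM in CT-NK, 28150 to 76170 in CT-HK, 13270 to 27370 in KO-NK and 13630 to 29090 in KO-LK. The lower knockout sums lay mostly in Klk1 (mean 22100 CPM in CT-NK, 7214 in KO-NK), S100g (4474 and 1154) and Calb1 (3580 and 1513). In KO-NK against CT-NK 10 of the 16 were positive and 6 negative (median log2 fold change 0.08). Of the 16, 3 were called lower there (0.763% of all genes).

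The members were expressed at low levels. In TPM, which corrects for transcript length, Pcna (33.1, mean over 23 libraries) and Tyms (26.7) led, followed by Mcm2 (8.20), Mcm7 (7.21) and Kif23 (6.60), a kinesin of the midbody. Cdk1 averaged 5.07 TPM, Top2a 2.63, and Mki67 0.515, while the kinetochore motor Cenpe was lowest at 0.287. The median library held 99 estimated counts of Cdca3, 134 of Mki67 and 1292 of Pcna, but only 15 of the checkpoint kinase Bub1, which was at 0 in KO-NK 4. The least certain log2 fold changes of KO-NK against CT-NK were those of Bub1 (SE 0.78), cyclin B2 (Ccnb2, SE 0.59) and the checkpoint kinase Ttk (SE 0.55, median 25.3 counts).

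**Figure D1:**
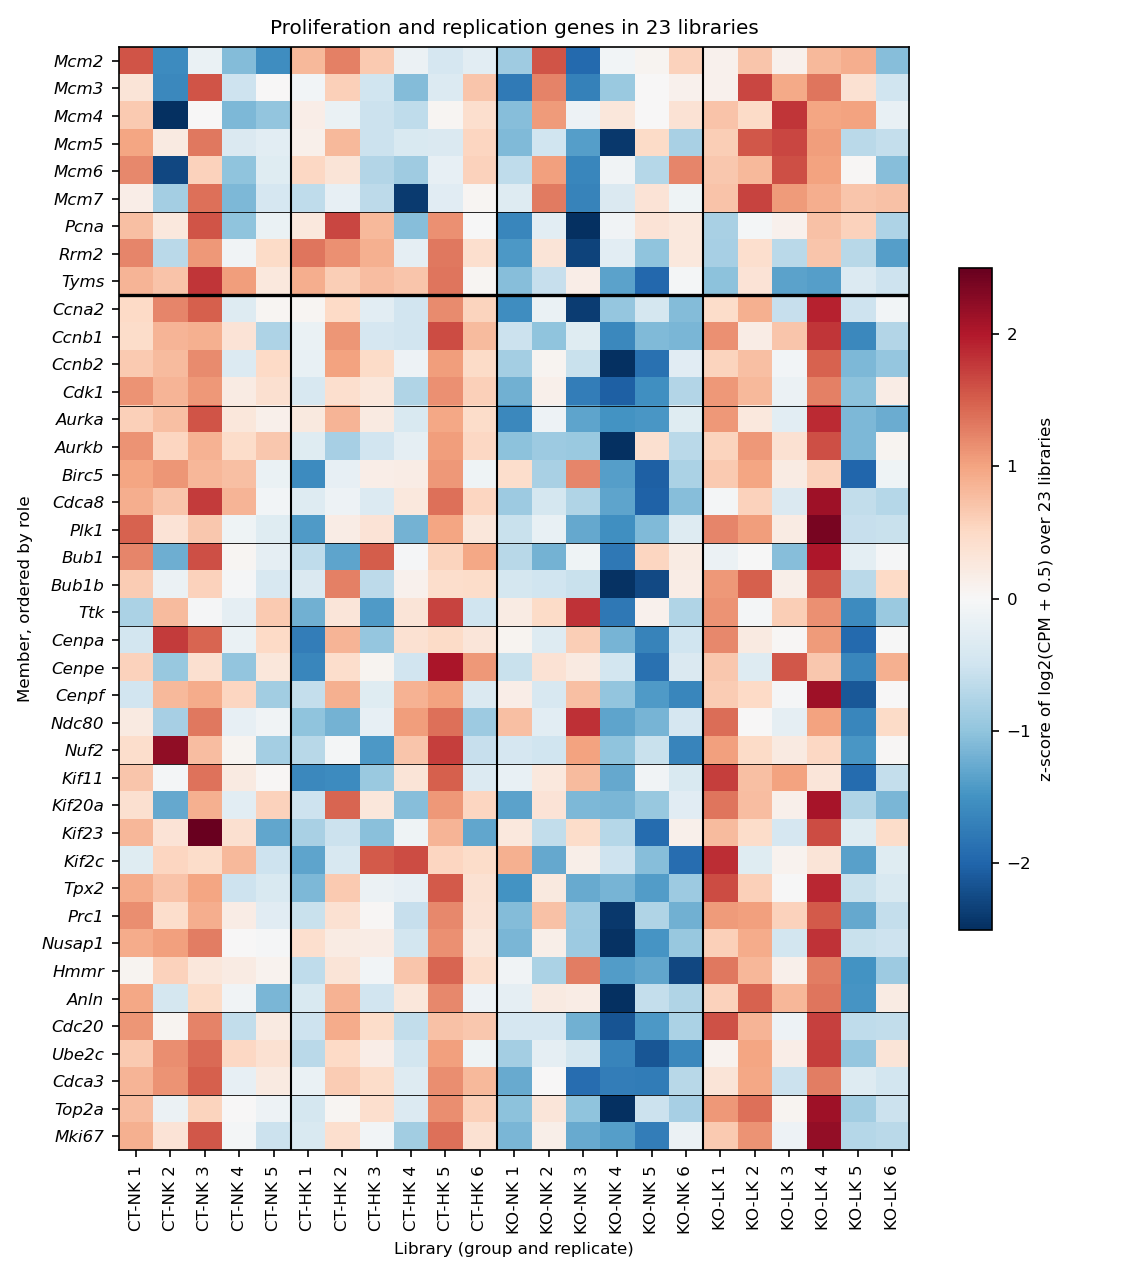
Heat map of the 40 members (rows, by role) in 23 libraries (columns), as z-scores of log2(CPM + 0.5) over all libraries with colours limited at 2.5. The heavy line divides the 9 replication genes from the 31 mitosis genes; KO-NK 4 is blue and KO-LK 4 red over most mitosis genes, and the replication rows do not follow the same columns.

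By CPM, mitotic transcripts were scarcest in the knockout on normal potassium. In KO-NK against CT-NK 4 genes, Cdca3, Ube2c, Cdk1 and Cdca8, fell by edgeR's quasi-likelihood test, which is 4 of 40 members against 1.7% of all genes called and 0.763% called lower. No member rose. Another 15 members had an unadjusted p under 0.05 without passing, so that 19 of 40 lay below that level in the lower direction, against 5.71% of all genes. The 31 mitosis genes had a median log2 fold change of -0.89, and 30 were negative, whereas the median over all genes was 0.15 and 36.6% were negative. The 9 replication genes had a median of -0.24, with 5 negative, which turned to 0.10 on the log2(TPM + 1) scale and to 0.03 without CT-NK 3.

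Cdca3, a trigger of mitotic entry that works through ubiquitin ligases, stood at 7.38, 9.04, 11.6, 3.43 and 4.76 CPM across CT-NK and between 0.787 and 4.06 CPM (median 1.21) in KO-NK. The groups overlapped only through KO-NK 2, which lay above CT-NK 4. The log2 fold change was -2.04 (SE 0.45, adjusted p = 0.0183, edgeR). Ube2c, the ubiquitin-conjugating enzyme of the anaphase-promoting complex, measured 4.50, 6.05, 6.92, 4.20 and 3.87 CPM across CT-NK and 0.696 to 2.70 (median 1.44) in KO-NK. No KO-NK library reached the lowest CT-NK library, and the log2 fold change was -1.66 (SE 0.38, adjusted p = 0.0233, edgeR).

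Cdk1, the kinase that drives entry into mitosis, stood at 9.42, 7.74, 9.12, 4.93 and 5.70 CPM across CT-NK and at 0.767 to 4.67 (median 1.48) in KO-NK, again without overlap. Its log2 fold change was -1.89 (SE 0.45, adjusted p = 0.0267, edgeR). Cdca8, or borealin, a subunit of the chromosomal passenger complex, measured 4.46, 4.09, 6.20, 4.34 and 2.98 CPM in CT-NK against 1.22 to 2.54 (median 2.00) in KO-NK. Its groups did not overlap either (log2 fold change -1.18, SE 0.31, edgeR adjusted p = 0.0484). This call was lost in 12 of 23 fits that left out a library, that of Cdk1 in 6, that of Ube2c in 2 and that of Cdca3 in 1. The Cdca8 call was also lost with the replicate number as a block (adjusted p = 0.11), with no filter on low counts (0.115), with library totals (0.0503), and in the fits with a leukocyte covariate (0.0749) or without the libraries richest in proximal tubule markers (0.0663). Cdca8 overlaps 9930104L06Rik on the opposite strand (7.64 CPM). The labels do not state a stranded library, so the counts of Cdca8 are uncertain.

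These calls rested on few libraries. Without CT-NK 3, the library richest in mitotic transcripts of its group, none of the 4 passed, with adjusted p-values of 0.0527 for Cdca3, 0.0583 for Ube2c, 0.0558 for Cdk1 and 0.131 for Cdca8, although the fold changes kept their sign. The count was 1 without CT-NK 2, 2 without CT-NK 1, KO-NK 1, KO-NK 4 or KO-NK 5, and 7 without KO-LK 4. Fitted on the KO-NK and CT-NK libraries alone it was 0, and with DESeq2 it was 11 (1150 of 15734 genes called). DESeq2 thus called a larger share of all genes than the 1.7% of edgeR. For the fits that left out libraries the share of all genes called is not given here. Without the 5 libraries rich in receptor genes 2 genes were called, Ube2c and Cdca3, and the median of the mitosis genes was -1.14. On the log2(TPM + 1) scale limma called Cdk1, Cdca8, Nusap1, Ube2c and Cdca3 lower and the helicase genes Mcm2 and Mcm4 higher, and the median of the mitosis genes was -0.24. The median over all genes was 0.20 there, and limma called a larger share of all genes than edgeR, as listed with the settings below.

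**Figure D2:**
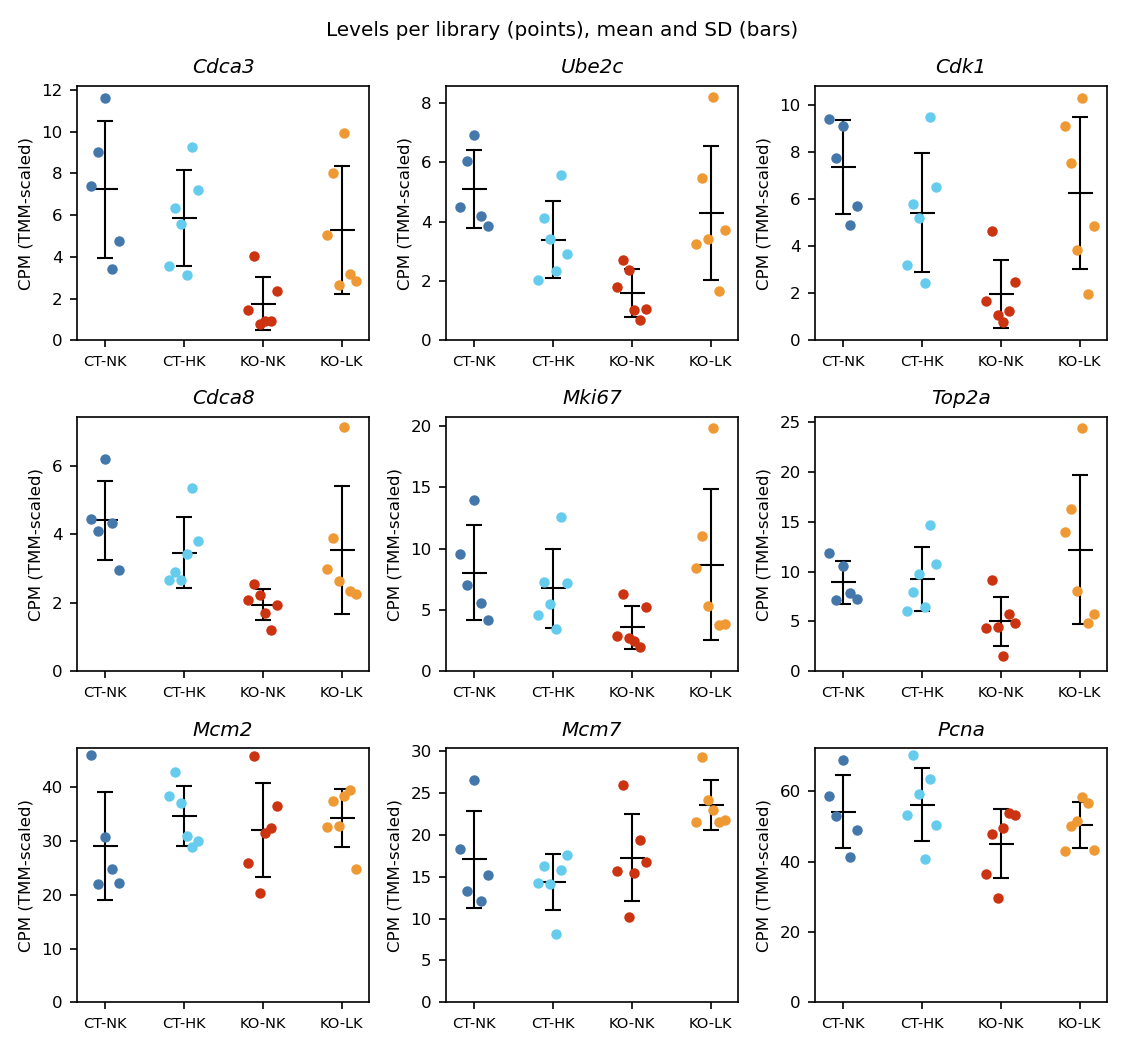
Levels of 9 members in CPM on linear axes from 0 (points are libraries, bars the mean and SD of a group; CT-NK n = 5, the others n = 6). Cdk1, Ube2c and Cdca8 lie lower in every KO-NK library than in every CT-NK library, Mcm2 and Pcna overlap in all groups, and KO-LK spans low and high values of Mki67 and Top2a.

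Values in KO-NK against CT-NK were not even across roles. The cyclins and their kinase had a median log2 fold change of -1.56 over 4 genes, with 1 called. Cyclin A2 (Ccna2) stood at 6.68, 10.3, 12.1, 4.06 and 5.11 CPM across CT-NK and 0.973 to 4.47 (median 2.61) in KO-NK, overlapping at the edge (log2 fold change -1.50, SE 0.41, adjusted p = 0.064, edgeR). Cyclin B1 (Ccnb1), the main partner of Cdk1, measured 4.18, 5.19, 5.28, 3.93 and 2.03 CPM across CT-NK and 1.17 to 2.69 in KO-NK (log2 fold change -1.14, SE 0.42, adjusted p = 0.207). The 3 genes around the anaphase-promoting complex, Cdc20, Ube2c and Cdca3, had a median of -1.66, with 2 called. Cdc20, its activator, stood at 9.70, 5.35, 10.6, 3.56 and 5.85 CPM across CT-NK and 1.26 to 4.02 in KO-NK (log2 fold change -1.30, SE 0.40, adjusted p = 0.104), and overlaps Elovl1 (88.5 CPM) on the other strand.

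The 5 mitotic kinase and passenger genes had a median of -1.18. Aurka and Aurkb, the Aurora kinases of the centrosome and of the passenger complex, lay lower in every KO-NK than in every CT-NK library, Aurka at 1.51 to 3.57 against 4.07 to 8.56 CPM and Aurkb at 0.135 to 2.18 against 2.24 to 3.20, and did not pass (adjusted p = 0.0763 and 0.162, edgeR). In all, 6 of 40 members did not overlap with KO-NK below CT-NK (Tyms, Cdk1, Aurka, Aurkb, Cdca8 and Ube2c), against 1% of all genes. Birc5 (survivin), the most abundant of the role, measured 7.10, 7.50, 6.68, 6.44 and 4.36 CPM across CT-NK and 1.83 to 7.83 in KO-NK (log2 fold change -0.66, SE 0.35). It overlapped widely. Plk1, the Polo-like kinase, gave -1.03 (SE 0.41) and Ccnb2, of the cyclins, -1.62 (SE 0.59), neither past the test. Ccnb2 averaged 1.34 CPM in KO-NK and had 1 estimated count in its lowest library. Its pseudogene Ccnb2-ps averaged 1.27 CPM over all libraries. Whether reads were shared between them was not tested, so the counts of Ccnb2 are uncertain.

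Smaller differences were found for the machinery of chromosome attachment. The 5 centromere and kinetochore genes had a median of -0.51 and none had an unadjusted p under 0.05. Cenpf, a large kinetochore protein, stood at 3.39, 6.39, 6.76, 5.62 and 2.78 CPM across CT-NK and 1.85 to 6.21 in KO-NK (log2 fold change -0.51, SE 0.41), and Ndc80, of the outer kinetochore, gave -0.02 (SE 0.45). Cenpa, the centromeric histone, gave -0.64, the Ndc80 partner Nuf2 -0.61 and Cenpe -0.19. Of the 3 checkpoint genes, Bub1b (BubR1) measured 2.92, 1.81, 2.84, 1.96 and 1.54 CPM across CT-NK and 0.226 to 2.22 in KO-NK (-0.90, SE 0.47), while Ttk was the lone mitosis gene with a positive value (0.08, SE 0.55). The 9 spindle motors and organisers had a median of -0.49. Kif23 stood at 9.98, 8.76, 15.5, 8.91 and 5.60 CPM across CT-NK and 4.70 to 9.03 in KO-NK (-0.41, SE 0.23), and Nusap1, a microtubule bundling protein, had the lowest value of the role (-1.33, SE 0.38, adjusted p = 0.074, edgeR). The microtubule crosslinker Prc1 (-0.89), the spindle assembly factor Tpx2 (-0.86) and the kinesin Kif20a (-0.82) came next, and Hmmr (-0.49), Kif2c (-0.41), Anln (-0.37) and Kif11 (-0.36) were nearer to 0. Besides Cdca8 and Cdc20, Ccna2 (Exosc9, 34.4 CPM), Kif20a (Cdc23, 64 CPM) and Prc1 (Rccd1, 7.52 CPM) overlap a gene on the opposite strand and are uncertain in the same way.

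The classic division markers did not pass the test. Mki67, which encodes the Ki-67 antigen on mitotic chromosomes, stood at 9.56, 7.04, 14.0, 5.57 and 4.17 CPM in CT-NK, at 3.43 to 12.6 (median 6.36) in CT-HK, at 1.96 to 6.27 (median 2.79) in KO-NK and at 3.77 to 19.8 (median 6.87) in KO-LK. Top2a, the topoisomerase that untangles chromosomes, measured 11.8, 7.16, 10.6, 7.85 and 7.24 CPM in CT-NK, 6.07 to 14.7 (median 8.87) in CT-HK, 1.58 to 9.14 (median 4.65) in KO-NK and 4.80 to 24.3 (median 11.0) in KO-LK. The KO-NK libraries overlapped the others for both genes. In KO-NK against CT-NK the log2 fold change was -1.16 for Mki67 (SE 0.43, adjusted p = 0.215) and -0.83 for Top2a (SE 0.38, adjusted p = 0.395, edgeR).

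Most replication genes overlapped across the groups. Mcm2 stood at 46.0, 22.1, 30.8, 24.8 and 22.2 CPM in CT-NK, 29.0 to 42.9 (median 34.0) in CT-HK, 20.3 to 45.9 (median 31.9) in KO-NK and 24.9 to 39.5 (median 35.2) in KO-LK. Pcna measured 58.7, 53.1, 68.9, 41.2 and 48.9 CPM in CT-NK, 40.7 to 70.3 (median 56.2) in CT-HK, 29.8 to 53.9 (median 48.7) in KO-NK and 43.0 to 58.3 (median 50.7) in KO-LK. The ranges of all groups overlapped for both. In KO-NK against CT-NK their log2 fold changes were 0.14 (SE 0.20) for Mcm2 and -0.26 (SE 0.17) for Pcna, and the latter turned to 0.10 on the log2(TPM + 1) scale.

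Mcm5 stood at 12.2, 9.68, 13.4, 8.08 and 8.33 CPM in CT-NK, 7.68 to 11.5 in CT-HK, 4.29 to 10.4 in KO-NK and 7.37 to 14.9 in KO-LK, and of the helicase genes it had the lowest fold change for KO-NK against CT-NK (log2 -0.57, SE 0.23, edgeR adjusted p = 0.283). Mcm3 gave -0.24, Mcm4 0.37 and Mcm6 0.07. Rrm2, the regulated subunit of ribonucleotide reductase, measured 23.4, 11.3, 22.2, 14.2 and 17.6 CPM across CT-NK and 13.4 to 24.5 in CT-HK, against 5.88 to 16.5 in KO-NK and 8.56 to 19.1 in KO-LK. Both knockout groups reached lower values of Rrm2 than the controls, with overlap (log2 fold change -0.60 for KO-NK over CT-NK, SE 0.26, adjusted p = 0.349). Tyms, thymidylate synthase, kept a narrow range, 35.8 to 43.5 CPM in CT-NK, 34.9 to 41.1 in CT-HK, 26.9 to 35.4 in KO-NK and 29.0 to 36.2 in KO-LK. Its fold changes of -0.32 in KO-NK (SE 0.10, adjusted p = 0.118) and -0.30 in KO-LK (adjusted p = 0.129) against CT-NK did not pass in edgeR.

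**Figure D3:**
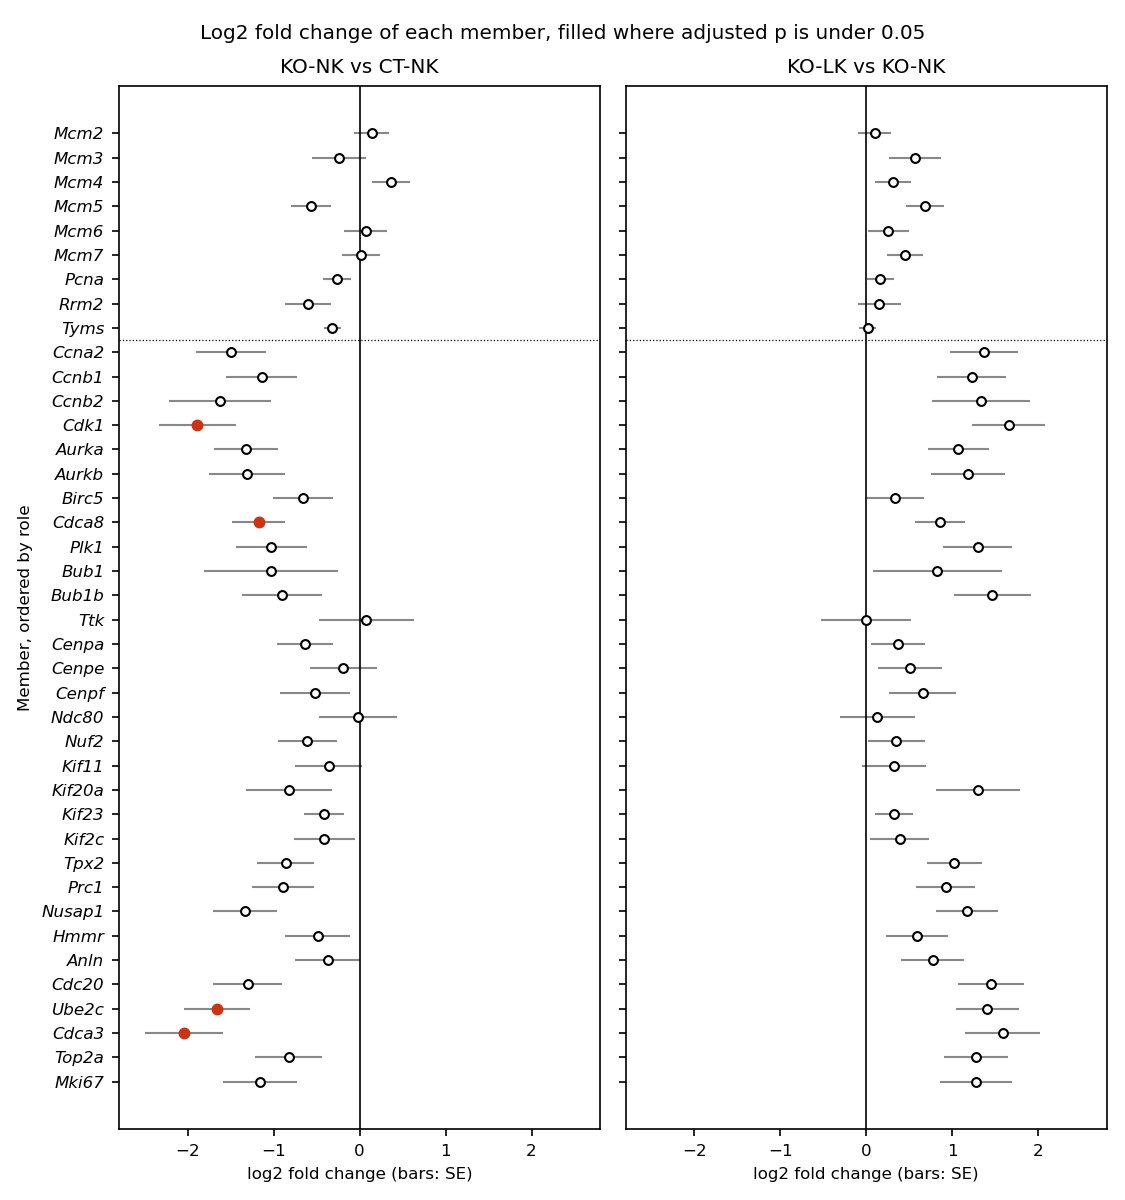
Log2 fold change of each member (points) with its standard error (bars) in KO-NK against CT-NK and in KO-LK against KO-NK; filled points passed an adjusted p of 0.05 in edgeR, and the dotted line divides the 9 replication genes from the 31 mitosis genes. Filled points are Cdk1, Cdca8, Ube2c and Cdca3 in the left panel and none in the right panel, where 39 of 40 points lie above 0.

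Low potassium in the knockout was set against normal potassium with KO-LK and KO-NK. No member was called by edgeR (0 of 40; 0% of all 25829 genes), and DESeq2 called none of the 40 and 24 genes in all. At an unadjusted p under 0.05, 21 of 40 members were higher and 0 lower in KO-LK, against 1.39% of all genes higher and 2.83% in either direction. The log2 fold change was positive in 39 of 40 members, with Ttk at -0.01, whereas 63.4% of all genes were negative. The median was 1.03 over the mitosis genes and 0.26 over the replication genes, against -0.13 over all genes. The KO-NK libraries enter both this comparison and the preceding one, so a low KO-NK level lends the 2 fold changes of a gene opposite signs, and they are not separate evidence.

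The highest log2 fold changes were those of Cdk1 and Cdca3. Cdk1 ranged from 1.96 to 10.3 CPM (median 6.21) in KO-LK, and the log2 fold change against KO-NK was 1.65 (SE 0.43, adjusted p = 0.689, edgeR). Cdca3 ranged from 2.67 to 9.96 CPM (median 4.11; 1.59, SE 0.44, adjusted p = 0.902), and Ube2c from 1.67 to 8.20 (median 3.58; 1.41, SE 0.37, adjusted p = 0.72). Every one of these ranges overlapped that of KO-NK. No member separated the groups completely (0 of 40; 0.275% of all genes).

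Roles differed in their median log2 fold change. The median was 1.45 for the genes around the anaphase-promoting complex (Cdc20, Ube2c and Cdca3), with Cdc20 at 3.49 to 13.6 CPM in KO-LK (1.45, SE 0.38). It was 1.36 for the cyclins and Cdk1, with Ccna2 at 3.47 to 15.3 (1.37, SE 0.40) and Ccnb1 at 1.17 to 8.58 (1.22, SE 0.40). Mki67 and Top2a gave 1.27 (SE 0.42) and 1.28 (SE 0.37), both with an adjusted p of 0.928 in edgeR. The kinases had a median of 1.07, with Plk1 at a fold change of 1.30 (SE 0.40) and Birc5 at 1.89 to 7.14 CPM (0.33, SE 0.34). The checkpoint genes had a median of 0.83, with Bub1b at 1.28 to 4.92 CPM (1.47, SE 0.45), and the spindle genes 0.77, with Kif23 at 7.13 to 12.4 (0.32, SE 0.22). The spindle genes ranged from Kif11 and Kif23 (both 0.32) to Kif20a (1.30), with Nusap1 at 1.17 and Tpx2 at 1.03. Of the mitotic roles the kinetochore genes had the lowest median, 0.37, with Cenpf at 1.39 to 11.8 CPM (0.66, SE 0.39). The helicase genes had 0.38 and the clamp and nucleotide genes 0.15. Mcm2 (0.10), Pcna (0.16) and Rrm2 (0.15) turned to -0.06, -0.0015 and -0.05 without the 5 libraries rich in receptor genes.

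Mitotic levels varied most among KO-LK libraries. The summed CPM of the 31 mitosis genes was 176, 167, 112, 254, 63.8 and 93.5 in KO-LK replicates 1 to 6, a ratio of 3.98 between the highest and the lowest. In KO-NK it was 79.0, 103, 92.0, 46.3, 58.0 and 74.0 (ratio 2.23), in CT-NK 158, 149, 197, 113 and 105 (ratio 1.87) and in CT-HK 82.4, 139, 110, 101, 196 and 131 (ratio 2.38). Every CT-NK library was above every KO-NK library, by a margin of 2 CPM at the edge (105.3 against 103.3), while KO-LK overlapped both. The means were 144 ± 37 in CT-NK (SD, n = 5), 126 ± 39.7 in CT-HK (SD, n = 6), 75.4 ± 21.1 in KO-NK (SD, n = 6) and 144 ± 68.8 in KO-LK (SD, n = 6). The 9 replication genes summed to 206 ± 44.4, 215 ± 24.6, 187 ± 36.6 and 217 ± 26.3 in the same order, with ranges that all overlapped.

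The same libraries stood at the ends for most mitosis genes. KO-LK 4 was the highest of all 23 in 19 of the 31, and KO-LK 5 was among the lowest 6 in 25. KO-NK 4 was the lowest of 23 in 13 and among the lowest 6 in 30, and CT-HK 5 was among the highest 6 in 28. The median mitosis fold change of KO-LK against KO-NK was 0.89 without KO-LK 4 and 1.22 without KO-LK 5, and 0.89 to 1.28 over the 23 fits that each left out a library. Over all 23 libraries pairs of mitosis genes had a median Spearman rho of 0.604 (465 pairs), pairs of replication genes 0.439 (36 pairs) and mixed pairs 0.272 (279 pairs). These correlations are a description, since the libraries also differ in depth and tissue make-up, which all genes of a library share.

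**Figure D4:**
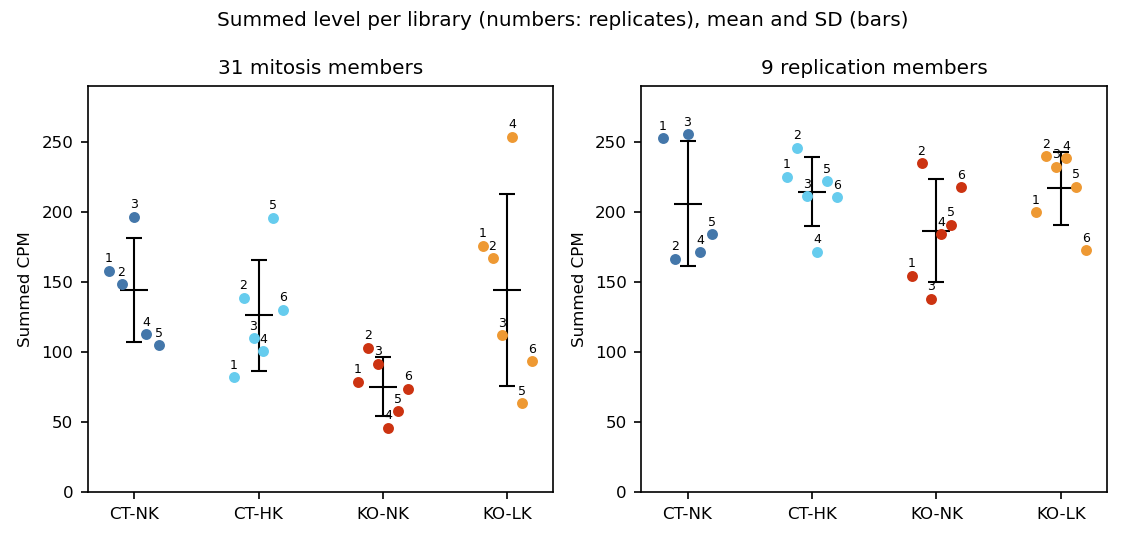
Summed CPM per library of the 31 mitosis genes (left) and the 9 replication genes (right), with replicate numbers beside the points and bars for mean and SD (CT-NK n = 5, the others n = 6). Mitosis sums of KO-NK lie between 46.3 and 103, those of CT-NK between 105 and 197, and those of KO-LK between 63.8 and 254, while replication sums overlap in all groups.

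How far KO-NK is the low group depended on the scale. By mean CPM, KO-NK was the lowest of the 4 groups in 27 of 31 mitosis genes and CT-HK in the other 4, and the highest mean was in CT-NK for 15 and in KO-LK for 11. By mean TPM, KO-NK was lowest in 18, CT-HK in 10 and CT-NK in 3, and KO-LK was highest in 24. KO-LK had the lowest mean in none of the 31 on either scale. Unlike the CPM, the TPM values carry no TMM scaling. With library totals in place of TMM, the median over all genes in KO-LK against CT-HK went from -0.01 to 0.28. The same ranking over all genes is not given here.

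In CT-HK against CT-NK, the diet contrast in controls, edgeR called 0 of 40 members (0% of all genes), with 0 at an unadjusted p under 0.05 (3.59% of all genes), and DESeq2 also called 0. The mitosis median was -0.21. In KO-LK against CT-NK DESeq2 called 2 of the 38 members with an adjusted p, Mcm4 and Tyms. It called 1375 of 16732 genes in all, which is a larger share. There edgeR again called 0 of 40 (2.04% of all genes), and 3 had an unadjusted p under 0.05 (12.9% of all genes). The mitosis median there was -0.02, with 16 of 31 negative. In KO-NK against CT-HK 17 of 40 were lower at an unadjusted p under 0.05 (10.1% of all genes) and 2 of 40 fell (5.78% of all genes called, 3.32% lower): Cdca3, at 3.13 to 9.26 CPM (median 5.96) in CT-HK (log2 fold change -1.73, SE 0.44, adjusted p = 0.0174), and Cdk1, at 2.43 to 9.50 (median 5.50; -1.45, SE 0.43, adjusted p = 0.0449, edgeR). The Cdk1 call was lost in 16 of 23 fits that left out a library and that of Cdca3 in none, and 1 member, Cdca8, did not overlap (1.74% of all genes). These comparisons share their groups with those above.

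By edgeR, Mcm7 was the only member called higher in any of the 6 comparisons, and only in KO-LK against CT-HK (1 of 40; 5.49% of all genes called, 2.2% higher). It stood at 18.2, 13.3, 26.6, 12.1 and 15.2 CPM in CT-NK, 8.12 to 17.6 (median 15.0) in CT-HK, 10.2 to 25.9 (median 16.3) in KO-NK and 21.5 to 29.3 (median 22.4) in KO-LK. All KO-LK libraries were above all CT-HK libraries, which held for 1 of 40 members (1.66% of all genes), and the log2 fold change was 0.71 (SE 0.21, adjusted p = 0.0484, edgeR). The call was lost without CT-NK 1, 2, 4 or 5, without any of CT-HK 1 to 5 and without KO-NK 1, with an adjusted p of up to 0.0882. It was also lost in edgeR with DESeq2's size factors (adjusted p = 0.052), with no filter on low counts (0.256), with the replicate number as a block (0.0601), without the 2 libraries richest in proximal tubule markers (0.0575), and with the leukocyte (0.0725) or the proximal tubule covariate (0.062). With the size factors Tyms was called lower instead, and with the leukocyte covariate Rrm2. Mcm7 overlaps Cops6 (99.3 CPM) and Ap4m1 on the opposite strand, so its counts are uncertain without strand information.

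Other genes of the pathway, from 3 lists of 118 genes that share no gene with the members, are read against the same shares of all genes called: 1.7% in KO-NK against CT-NK, 0% in KO-LK against KO-NK, 2.04% in KO-LK against CT-NK, 5.78% in KO-NK against CT-HK and 5.49% in KO-LK against CT-HK. Of 48 other mitosis genes, 1 fell and 0 rose in KO-NK against CT-NK (36 of 48 negative, median -0.23), and 0 were called in KO-LK against KO-NK (39 of 48 positive, median 0.34). Spc25, an Ndc80 complex subunit, was the gene that fell, from 65.1 to 39.5 CPM (log2 fold change -0.72, SE 0.17, adjusted p = 0.023, edgeR), and it fell against CT-HK as well (-0.87, adjusted p = 0.00153). Pttg1, or securin, fell in KO-NK against CT-HK (-0.66, adjusted p = 0.0186), which made 2 of 48 lower there, and was the 1 of 48 that fell in KO-LK against CT-HK (-0.71, adjusted p = 0.0106). Pbk, a mitotic kinase, averaged 5.70 CPM across CT-NK and 1.69 in KO-NK without passing (-1.75, adjusted p = 0.0638), as did Cks2, which binds Cdk1 (-1.22, adjusted p = 0.0539).

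Of 38 other replication genes 0 were called in KO-NK against CT-NK by edgeR (1 higher and 3 lower at an unadjusted p under 0.05) and 0 in KO-LK against KO-NK, and 1 rose in KO-LK against CT-HK, the clamp loader subunit Rfc3 (0.56, adjusted p = 0.0385). Of 32 cell cycle regulators, 1 gene was called higher and 1 lower for KO-NK against CT-NK. Cdkn1a, the Cdk inhibitor p21, rose in KO-NK, with means of 26.7 and 54.7 CPM (log2 fold change 1.04, SE 0.18, adjusted p = 0.0024), and stood at 51.1 in KO-LK (KO-LK against KO-NK -0.10, SE 0.17, adjusted p = 0.932). Ccne1, cyclin E1 of the G1 to S transition, fell from 2.98 to 0.782 CPM (-1.92, SE 0.40, adjusted p = 0.0108, edgeR). In KO-NK against CT-HK 2 of the 32 regulators rose and 2 fell. Cdkn1a rose there from 15.9 to 54.7 CPM (1.79, SE 0.17, adjusted p = 1.39e-06), and so did Cdk6, a kinase of the G1 phase (0.89, adjusted p = 0.00175). The Cdk inhibitor gene Cdkn2c (-1.16, adjusted p = 0.0172) and cyclin D1 (Ccnd1, -0.68, adjusted p = 0.0392) fell. In KO-LK against CT-HK 2 rose, Cdkn1a (1.69) and Cdk6 (0.87), and 1 fell, the phosphatase gene Cdc25a (-0.69, adjusted p = 0.0221), and in KO-LK against CT-NK Cdkn1a alone was called (0.94, adjusted p = 0.00541). Ccnd1 and Cdc25a were named after their values were seen.

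Some markers of cells other than the labelled ones moved beside these results. Summed CPM of 18 macrophage and leukocyte markers was 246 to 1101 in CT-NK, 351 to 661 in CT-HK, 233 to 848 in KO-NK and 404 to 863 in KO-LK; 13 of 18 were positive in KO-LK against KO-NK and 14 of 18 negative in KO-NK against CT-NK, and none was called. S100a8, S100a9 and Cd79a were each at 0 in some libraries. Proximal tubule markers summed to 561 to 18840, 276 to 32410, 1070 to 5887 and 366 to 1716 CPM in the same order, with 18 of 18 negative in both comparisons and none called. In KO-LK against CT-HK 18 of 18 were negative (median log2 fold change -2.76), 16 at an unadjusted p under 0.05 in edgeR. Of these markers 1 was called lower there (5.49% of all genes called). In KO-LK against CT-NK 18 of 18 were lower at an unadjusted p under 0.05 (12.9% of all genes), none called. Markers of fibroblasts, pericytes and smooth muscle summed to 23.8 to 304.6, 23.7 to 51.9, 12.1 to 58.8 and 23.8 to 54.3 CPM. Of 12 tested, 11 were negative in KO-NK against CT-NK (median log2 fold change -1.20), where the matrix gene Dcn fell (-2.15, adjusted p = 0.00069), and 6 of 12 in KO-LK against KO-NK (median 0.01, none called). In KO-NK against CT-HK 5 of 12 were negative and Dcn fell (-1.44, adjusted p = 0.00427). Of 6 erythroid markers tested, 5 were negative in KO-NK against CT-NK (median -1.40) and 5 positive in KO-LK against KO-NK (median 0.61), none of them called, and Hbb-bs, Hbb-bt and Hba-a2 were each at 0 in some libraries of every group. The exception in both was Slc4a1 (means of 124 CPM in CT-NK, 217 in KO-NK and 108 in KO-LK), which was also listed as an intercalated cell marker. Each of the other erythroid markers averaged at most 7.41 CPM in any group. Of 8 markers of thick ascending limb and distal convoluted tubule, 6 were positive in KO-NK against CT-NK (median 0.82). In KO-LK against KO-NK 3 of these 8 were positive (median -0.17), and none was called in either comparison. In KO-LK against CT-NK 1 of them was called higher (2.04% of all genes called), and in KO-LK against CT-HK 1 (5.49%). Of 12 intercalated cell markers, 9 were negative in KO-NK against CT-NK (median -0.10), with 1 called lower (1.7% of all genes called). In KO-LK against KO-NK 7 of these 12 were positive (median 0.06), and none was called. Of 10 endothelial markers, 5 were negative in KO-NK against CT-NK (median 0.01) and 2 in KO-LK against KO-NK (median 0.10), none called. The part of these cells in the results was not tested. With the leukocyte score as a covariate the mitosis medians were -0.84 and 0.95, and with the proximal tubule score -0.89 and 0.97, for KO-NK against CT-NK and KO-LK against KO-NK. Each score was the log2 of the summed CPM of its markers. The leukocyte score mostly followed Cd74, which averaged 378 of 584 CPM in CT-NK and 424 of 664 in KO-LK. In bulk tissue fewer dividing cells and less transcript per dividing cell cannot be told apart, nor can the dividing cell type be named from these libraries; whether leukocytes carry part of these transcripts was not tested.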

How the data were processed

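The members, roles, pathway and marker lists were chosen with earlier results of these data known. Full-length cDNA (SMART-Seq HT, Nextera XT) was quantified by the authors with Salmon (listed as 0.14.10) on GRCm38.p6, per the submitters' processing notes; strand is not given in the sources used here. The authors deposited expected counts per gene, of which 35.9% are not whole, and TPM. After rounding, edgeR 4.0.16 under R 4.3.3 was run with TMM scaling, its default filter on low counts and 1 mean per group over all 23 libraries (19 residual degrees of freedom, common biological coefficient of variation 0.563), quasi-likelihood tests and Benjamini-Hochberg adjustment over 25829 genes in each of 6 comparisons. Called means an adjusted p under 0.05. Adjusted p-values in the text are edgeR's unless DESeq2 or limma is named. Values per library are TMM-scaled CPM. All 54393 gene IDs matched a symbol in GENCODE. The labels do not state separate animals, so p-values measure the spread between libraries.

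Values per library are printed for called members, for Mki67, Top2a, Cdk1, Ccnb1, Mcm2, Mcm5, Pcna and Rrm2, and for the member of highest mean CPM of each role; from the pathway lists at most the 4 genes of smallest p each are named, and other members are named for range or non-overlap after their values were seen. Alternatives were DESeq2 1.42.0, its size factors, library totals without TMM, a transcript length offset, no filter, a filter of 1 CPM in 5 libraries, limma 3.58.1 on log2(TPM + 1) and log2(TPM + 0.1), a replicate block, only the 2 groups compared, a robust fit, marker covariates, and leaving out libraries. No pair of libraries among 55 within groups agreed within sampling noise. Promoter motifs were searched in RefSeq windows by exact match.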

Additional observations from a re-analysis of the deposited data

Results flagged for a closer look

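In 7 of 160 combinations of gene and group checked, the highest or lowest library stood apart from the others by Dixon's criterion, which chance alone meets in about 1 of 20. KO-LK 4 was far above its group for Cdca8 (7.13 CPM, next 3.90) and Bub1 (2.52, next 0.655), and KO-LK 2 for Mcm7 (29.3, next 24.1). CT-HK 4 was far below its group for Mcm7 (8.12, next 14.1). In KO-NK, replicate 2 was far above the others for Tpx2 (3.65, next 2.18) and Prc1 (8.60, next 4.18), and replicate 3 for Nuf2 (3.61, next 2.11).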

How the results depend on the processing

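KO-LK against KO-NK and CT-HK against CT-NK gave 0 called members in every setting run. For KO-NK against CT-NK (4 called) the count was 11 with DESeq2 (1150 of 15734 genes with an adjusted p called), 7 with library totals (1 of them higher; 2208 of 25829 genes called), with the 1 CPM filter (902 of 19743) and on both TPM scales (2 of them higher; 3041 and 3068 of 25829), 2 without the receptor-rich libraries, 0 with only the 2 groups fitted, and 0 to 7 over fits that left out a library. For KO-NK against CT-HK (2 called) it was 12 with DESeq2 (2626 of 17730), 4 with its size factors (1888 of 25829) and with the 1 CPM filter (2257 of 19743), all lower, and 4 on both TPM scales (5505 and 5643 of 25829), where Mcm4, Mcm7 and Kif23 were higher, Cdca3 was lower and Cdk1 was not called. It was 1 with the length offset, with no filter, without the 2 proximal-tubule-rich libraries and with the leukocyte covariate, 0 without the receptor-rich libraries, and 1 to 6 over fits that left out a library; it was 6 without CT-HK 4, 5 without KO-NK 2 and 1 without CT-HK 2, 3, 5 or 6, KO-NK 1, 3, 4 or 5, KO-LK 2 or 6 or any CT-NK library. For KO-LK against CT-HK (1 called) it was 3 with DESeq2 (2485 of 16732), 5 with library totals (4691 of 25829), 10 and 9 on the log2(TPM + 1) and log2(TPM + 0.1) scales (6852 and 6951 of 25829, a share no smaller than that of the members), 2 with only the 2 groups, 0 with no filter, with the replicate block, without the proximal-tubule-rich libraries and with the proximal tubule covariate, and 0 to 1 over fits that left out a library. For KO-LK against CT-NK (0 called) it was 2 with DESeq2 (1375 of 16732), 3 with library totals (3391 of 25829), 4 on both TPM scales (4361 and 4345 of 25829), and 0 to 1 over fits that left out a library, with 1 without CT-NK 1, KO-NK 2, KO-NK 3 or KO-LK 6. The causes were not tested.

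Of the members recomputed singly in every setting, Mki67, Top2a, Cdk1, Ccnb1, Mcm2, Mcm5, Pcna and Rrm2 besides those called, some turned sign without being called. In KO-LK against KO-NK the log2 fold changes of Mcm2, Pcna and Rrm2 were -0.0568, -0.0015 and -0.048 without the receptor-rich libraries, and that of Rrm2 was -0.0685 with the leukocyte covariate. In KO-NK against CT-NK that of Pcna was 0.0965 on log2(TPM + 1) and 0.0995 on log2(TPM + 0.1). Over the 31 mitosis genes, the number with a negative value was 23 on log2(TPM + 1) against 30 in KO-NK against CT-NK, and 20 on both TPM scales against 27 in KO-NK against CT-HK, where the median went from -0.79 to -0.04 and -0.11. Library totals moved the median of all genes in KO-NK against CT-NK from 0.15 to 0.34, and that of the mitosis genes to -0.71; the mitosis median stayed negative there (-1.14 to -0.24) and positive in KO-LK against KO-NK (0.40 to 1.16) in every setting; over fits that left out a library it was -1.11 to -0.76 and 0.89 to 1.28. With the replicate number as a block 3 members were called in KO-NK against CT-NK and 2 in KO-NK against CT-HK. Pairing by replicate number is not stated in the labels. Of 33 pairs of libraries with the same number, 10 correlated over 0.1 (median -0.15, range -0.702 to 0.711). Other pairs had a median of 0.026, and 0 of 23 libraries correlated best with its own number. This check showed no pairing by number but cannot exclude it, since differences in tissue make-up enter the same correlations. Median counts of 15 to 134 for most mitosis genes limit what these depths can show.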

Other observations

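Outside the 40 members, the tested genes whose level followed the mean of the 40 members most closely over the 23 libraries, among 16953 candidates of at least 1 CPM, were Knstrn (Spearman rho 0.88), Stmn1 (0.87), Ckap2l (0.86), Pbk (0.81), Pimreg (0.80), Kif22 (0.80), Cdca5 (0.76) and Kif4 (0.76). Of these, Ckap2l, Pbk, Kif22 and Kif4 belong to the list of other mitosis genes. The libraries differ in depth and tissue make-up, which all genes of a library share, and the values are a description. Stmn1, which encodes the microtubule regulator stathmin, was the most abundant of the 8, at 28.2 CPM on average.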
